A study of Mus musculus with 10 samples.

Results

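Arterial endothelial markers are genes that line cells of arteries and arterioles transcribe more strongly than capillary or venous endothelium. The 9 genes described here (Gja4, Gja5, Sema3g, Efnb2, Sox17, Fbln5, Stmn2, Unc5b and Mecom) were taken as a named list from a table of 46983 genes, and all 9 were found in it by their mouse Ensembl identifiers. The table held RNA-sequencing read counts of CD31+ cells from the hearts of 10 male wild-type C57BL/6J mice, 8 weeks old when the feeding began. A control diet with 11.6 kcal% fat was given to 5 mice and a ketogenic diet with 89.5 kcal% fat to the other 5, each for 14 days. CD31 (PECAM1) is present on endothelial cells of every vessel type, and the cells were pulled down with antibody-coated magnetic beads rather than sorted, so arterial cells were a fraction of each sample that was not measured. The comparison asks how the arterial part of the cardiac endothelial transcriptome differed between the diets.

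Arterial identity is set up by VEGF and Notch signalling together with transcription factors of the SOXF family, and blood flow maintains it. Arterial endothelial cells are joined by gap junctions built of connexins, carry the ephrin-B2 ligand against the EphB4 receptor of veins, and display guidance receptors that were first studied in growing axons. In the heart these genes mark the endothelium of the coronary arteries and arterioles that feed the capillary bed.

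None of the 9 markers reached an adjusted p under 0.05 between the diets in edgeR's quasi-likelihood test, in which 1.34% of all 15949 tested genes did. At an unadjusted p under 0.05, 2 of the 9 passed, Gja5 and Mecom, both lower on the ketogenic diet. Over all genes 17.8% passed this limit in either direction and 9.26% passed it with a lower value. The fitted log2 fold change (ketogenic minus control) was below 0 for 8 of the 9 and above 0 for Fbln5 alone, beside 51.4% of all tested genes below 0. The median over the 9 was -0.10, and over all tested genes it was -0.01. DESeq2, run on the same counts, called 1 of the 9 (Gja5) at an adjusted p under 0.05, and 5.16% of its genes. The plot of normalized counts by mouse shows every value behind these statements.

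**Figure D1:**
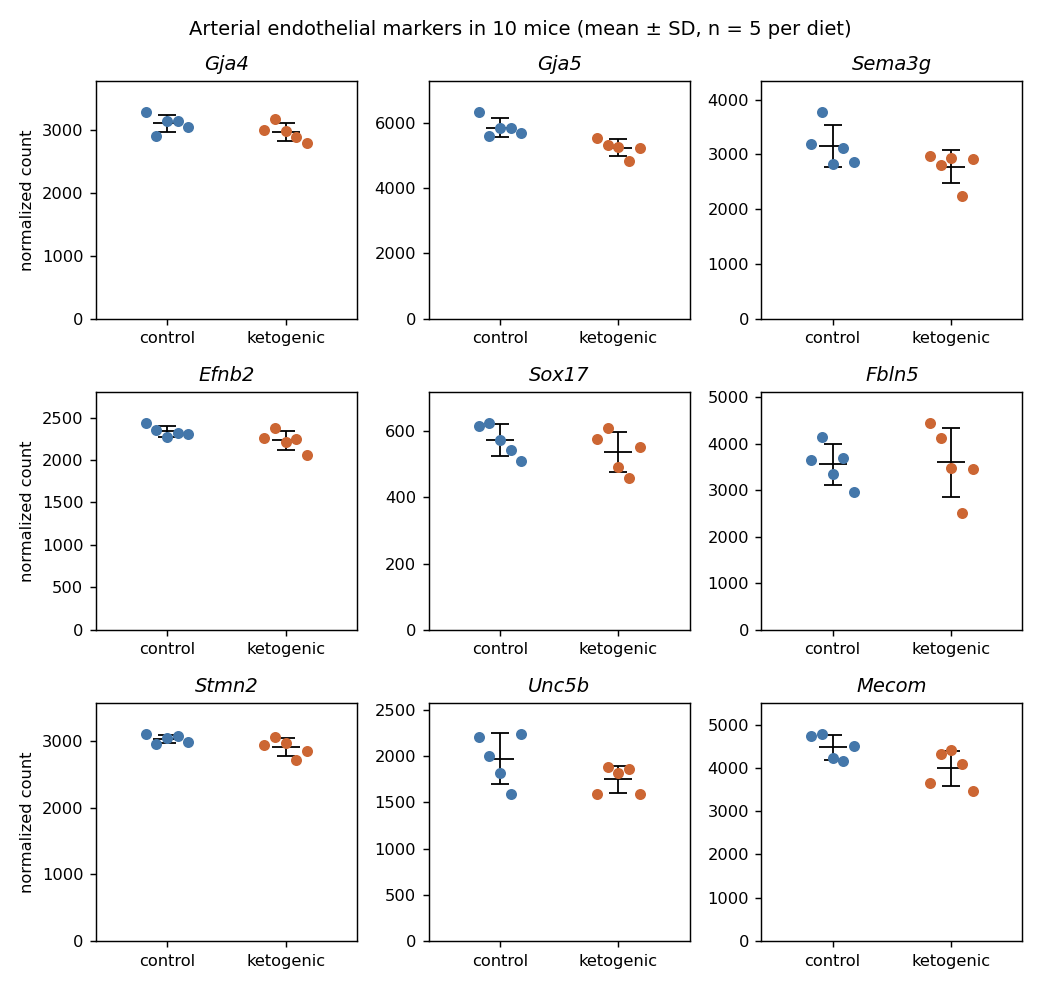
Normalized count (reads scaled to the mean effective library size, vertical axes from 0) of each of the 9 markers in the 5 control mice (blue) and 5 ketogenic mice (orange), with mean ± SD in black; mice run from 1 to 5 from left to right within a diet. Only for Gja5 do the 2 diets share no part of their range, and ketogenic mouse 4 is the lowest point for Sema3g, Fbln5, Sox17, Gja5 and Stmn2.

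Depth was even, from 10885154 to 12710861 counted reads per mouse, and effective library sizes (total reads times the TMM factor) averaged 11392911 in control and 11927971 in ketogenic mice, a log2 difference of 0.07 (two-sided exact permutation p = 0.1825). A second property of the counts bears on abundant genes. Of the 3770 tested genes that averaged 1000 reads or more and had a known exon length, only 6 had more reads in any mouse than there are read start positions on both strands of their exons (50-base reads), and the highest share was 111.4%, so that counts rarely passed 1 read per position. In the 74 genes that filled at least 80% of their positions, 91.89% of fitted log2 fold changes were below 0, with a median of -0.06, beside the library difference of 0.07. The share of positions is therefore given beside each marker it touches, and its part in the diet differences was not tested. Reads of markers of other cells were present too. All 10 mural marker genes fixed for comparison were detected, and whether the beads carried mural cells was not tested. Their summed values were 2662 to 2890 CPM (reads scaled to a common library size) in control and 2599 to 2876 in ketogenic mice. For 9 general endothelial genes including Pecam1 and Cdh5, the sums were 4105 to 4485 and 3925 to 4415. These sums are not divided by gene length, and Cdh5 filled up to 91.13% of its start positions. The sums therefore do not compare amounts of RNA between the lists. In bulk samples of this kind, fewer arterial cells and less RNA per arterial cell cannot be told apart.

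The 2 arterial connexins came first. Gja5 encodes connexin 40 and Gja4 connexin 37, gap junction proteins that couple neighbouring arterial endothelial cells electrically and chemically. Gja5 (ENSMUSG00000057123.14) lies on the + strand of GRCm38 at chr3:96904693-97077416. Normalized counts of Gja5 were 6334, 5590, 5845, 5841 and 5680 in control mice 1 to 5, and 5547, 5325, 5271, 4829 and 5236 in ketogenic mice 1 to 5. Every ketogenic mouse was below every control mouse, although the lowest control and the highest ketogenic value lay close together. Such a separation in either direction was seen for 4.34% of all tested genes, and among the 9 markers for Gja5 alone. The means were 5858 ± 287.7 and 5242 ± 260.5 (SD, n = 5 each), a log2 fold change of -0.16 (SE 0.0421, 95% interval -0.25 to -0.07). By edgeR the unadjusted p was 0.002502 and the adjusted p 0.08053. The exact permutation test over mice gave p = 0.007937, the smallest that 5 against 5 mice can give. DESeq2 put the log2 fold change at -0.15 with an adjusted p of 0.03548, and over all 24 alternative settings the adjusted p of Gja5 ran from 0.03548 to 0.5268.

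Raw counts of Gja5, before scaling by library size, overlapped between the diets (5548 to 5865 in control and 4969 to 5747 in ketogenic mice), with a log2 ratio of -0.09. They filled 81.19% to 95.83% of the start positions of its principal transcript, or 43.61% to 51.47% of those of all its annotated exons. A correction for filled positions on the principal transcript, added after the data had been seen, moved the log2 fold change to -0.45 (SE 0.123, limma adjusted p = 0.08621), while the correction over all exons gave -0.21 (limma adjusted p = 0.06933). The direction was the same with both. An exon of Gpr89 overlaps Gja5 on the opposite strand, and as the library kit does not mark strand, reads from the 2 genes there cannot be told apart.

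Gja4 (ENSMUSG00000050234.7; chr4:127311421-127314039, - strand) is a short gene of 2 exons. Its normalized counts were 3284, 2907, 3143, 3138 and 3041 in control mice and 2992, 3172, 2990, 2880 and 2787 in ketogenic mice. The diets overlapped, with 3103 ± 139.6 against 2964 ± 144.1 (SD, n = 5 each). The log2 fold change of -0.07 (SE 0.0422, 95% interval -0.16 to 0.03) did not pass (edgeR adjusted p = 0.4397; exact permutation p = 0.1429), and it was -0.04 without ketogenic mouse 5. Before scaling, the 10 mice held almost the same number of Gja4 reads, from 2963 to 3059, a highest to lowest ratio of 1.032 against 1.185 for the effective library sizes. The variance of these raw counts was 0.238 times their mean in control mice and 0.459 times in ketogenic mice, below the value of a Poisson count. Of the start positions, 90.56% to 93.49% were filled. Raw counts of Efnb2 had a ratio of 0.2246 in ketogenic and 5.241 in control mice, with 23.19% to 26% of its principal transcript's positions filled. Whether filled positions and this spread are linked was not tested. The log2 ratio of the raw counts of Gja4 was 0.00, so that the -0.07 after scaling equals the library difference of 0.07 with its sign turned.

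The promoter windows of the 2 connexin genes are printed because they are the paired members of one protein family and only Gja5 separated the diets. Each runs 5′ to 3′ from 250 bases before to 50 bases after the RefSeq start on GRCm38.p6, with Gja5 at chr3:97032152-97032451 (+ strand) and Gja4 at chr4:127313990-127314289 (- strand). Capitals mark matches on either strand to 4 core motifs of arterial regulators: ACAAT (SOX), TGGGAA (RBPJ, the Notch effector), AGGAAG (ETS) and CCACCC (KLF).
Gja5: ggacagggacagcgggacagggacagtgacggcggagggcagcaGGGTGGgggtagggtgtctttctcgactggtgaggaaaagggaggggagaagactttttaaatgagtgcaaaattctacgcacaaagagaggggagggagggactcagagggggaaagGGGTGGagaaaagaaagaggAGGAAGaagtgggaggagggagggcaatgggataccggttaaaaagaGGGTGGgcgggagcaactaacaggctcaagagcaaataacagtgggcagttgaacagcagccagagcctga
Gja4: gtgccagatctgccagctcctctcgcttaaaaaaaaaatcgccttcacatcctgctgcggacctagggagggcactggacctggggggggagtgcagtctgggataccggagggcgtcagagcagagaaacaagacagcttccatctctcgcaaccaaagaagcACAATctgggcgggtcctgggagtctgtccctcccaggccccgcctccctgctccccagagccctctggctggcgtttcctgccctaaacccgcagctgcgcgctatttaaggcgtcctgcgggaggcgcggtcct
The Gja5 window held 1 ETS and 3 KLF matches and no SOX or RBPJ match. The Gja4 window held 1 SOX match and no other. Of all 32851 mouse promoter windows of this length, 31.0% held the SOX letters, 25.6% the RBPJ letters, 35.4% the ETS letters and 31.5% the KLF letters. Among the 9 windows of the 7 markers with an entry, 3, 2, 3 and 3 held them, in the same order. Sox17 and Stmn2 had no entry. A match to so short a motif describes the letters alone.

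Next came the ligands. Efnb2 (ENSMUSG00000001300.15; chr8:8617434-8661242, - strand) encodes ephrin-B2, the membrane ligand that sets arterial cells apart from EphB4-bearing venous cells. Mouse by mouse, normalized counts of Efnb2 were 2435, 2352, 2277, 2320 and 2307 in control mice and 2256, 2375, 2215, 2249 and 2064 in ketogenic mice. All ketogenic mice but mouse 2 were below the lowest control mouse. The means of 2338 ± 60.5 and 2232 ± 111.8 gave a log2 fold change of -0.07 (SE 0.0392, edgeR adjusted p = 0.3944; exact permutation p = 0.09524). Without ketogenic mouse 5 it was -0.04. Raw counts of Efnb2 ran from 2200 to 2467 with a log2 ratio of -0.00 between the diets. Unlike Gja4, it filled 23.19% to 26% of the start positions of its principal transcript.

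Sema3g (ENSMUSG00000021904.5; chr14:31217860-31230352, + strand) encodes a secreted class 3 semaphorin made by arterial endothelium. Normalized, Sema3g was counted at 3200, 3776, 2830, 3122 and 2859 in control mice and 2973, 2810, 2929, 2249 and 2925 in ketogenic mice. Ketogenic mouse 4 stood below the others of its diet, whereas the remaining 4 lay within or just under the control range. The means were 3158 ± 381.5 and 2777 ± 301.4, and the log2 fold change was -0.19 (SE 0.0897, 95% interval -0.38 to 0.01; edgeR adjusted p = 0.3051). The exact permutation p was 0.1111. Leaving out 1 mouse at a time moved the log2 fold change of Sema3g between -0.22 and -0.11 (without control mouse 2), and no such fit brought it past the limit.

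The receptor of the list is Unc5b (ENSMUSG00000020099.7; chr10:60762593-60831581, - strand), which binds netrins on arterial and sprouting endothelium. It was counted at 2213, 2009, 1819, 1591 and 2239 in control mice and at 1589, 1886, 1821, 1864 and 1594 in ketogenic mice (normalized). The diets overlapped: control mouse 4 was as low as the 2 lowest ketogenic mice. The log2 fold change was -0.17 (SE 0.0913, edgeR adjusted p = 0.3467; exact permutation p = 0.1667), from means of 1974 ± 273.6 and 1751 ± 147.5 (SD, n = 5 each).

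Sox17 and Mecom are the transcription factors of the list. Sox17 (ENSMUSG00000025902.13; chr1:4490931-4497354, - strand) is a SOXF factor needed for arterial specification. It was the least counted marker, at 615.6, 623.5, 572.4, 543.2 and 509.9 in control mice and 574.3, 608.5, 489.9, 458.7 and 550.3 in ketogenic mice. These ranges overlapped widely, and the log2 fold change of -0.10 (SE 0.0879) did not pass (edgeR adjusted p = 0.6014; exact permutation p = 0.3175). Leaving out 1 mouse at a time moved it between -0.14 (without ketogenic mouse 2) and -0.04 (without ketogenic mouse 4), and it was -0.06 without control mouse 2 or without ketogenic mouse 3. Mecom (ENSMUSG00000027684.16; chr3:29951296-30548008, - strand) encodes the zinc finger factor EVI1 and its longer PRDM form, active in arterial endothelium. Normalized counts of Mecom were 4743, 4782, 4223, 4164 and 4505 in control mice and 3652, 4329, 4414, 4093 and 3480 in ketogenic mice. For Mecom, 3 of the 5 ketogenic mice were below every control mouse, and the other 2 lay inside the control range. The means were 4484 ± 286.1 and 3994 ± 412.4, and the log2 fold change of -0.17 (SE 0.0681, 95% interval -0.32 to -0.02) had an unadjusted p of 0.03035 and an adjusted p of 0.2244 in edgeR. The exact permutation p for Mecom was 0.07937. Exons of the antisense transcript Mecomos overlap Mecom, and exons of Gm37587 overlap Sox17, so those reads too cannot be assigned by strand.

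Fbln5 and Stmn2 complete the list. Fbln5 (ENSMUSG00000021186.8; chr12:101746565-101819055, - strand) encodes fibulin-5, an extracellular protein needed to assemble elastic fibres, and is also made by fibroblasts and smooth muscle. Its normalized counts were 3650, 4152, 3346, 3690 and 2972 in control mice and 4445, 4132, 3480, 2509 and 3455 in ketogenic mice. The highest and the lowest of the 10 mice were both on the ketogenic diet. The log2 fold change of Fbln5 was 0.02 (SE 0.1331, 95% interval -0.27 to 0.31, edgeR adjusted p = 0.9643), and its sign turned to -0.00 with limma on log2 CPM and to as low as -0.07 when single mice were left out. Stmn2 (ENSMUSG00000027500.10; chr3:8509360-8561606, + strand) encodes stathmin-2, a regulator of microtubules best known in neurons. Normalized, Stmn2 was counted at 3098, 2951, 3035, 3069 and 2980 in control mice and 2942, 3059, 2972, 2713 and 2848 in ketogenic mice. The log2 fold change of -0.06 (SE 0.0354) did not pass (edgeR adjusted p = 0.4174; exact permutation p = 0.09524), and it was -0.03 without ketogenic mouse 4. Raw counts of Stmn2 ran only from 2792 to 3126, with a log2 ratio of 0.01 and 68.97% to 77.22% of the principal transcript's start positions filled. Of genes known from nerve cells, Tubb3 was at 125.1 ± 27.78 normalized counts in control and 86.57 ± 19.69 in ketogenic mice (log2 fold change -0.53, edgeR adjusted p = 0.1822), and Prph at 38.84 ± 19.73 and 31.53 ± 5.504 (-0.30, edgeR adjusted p = 0.6521). Sox10 and Th averaged under 2 normalized counts in both diets.

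**Figure D2:**
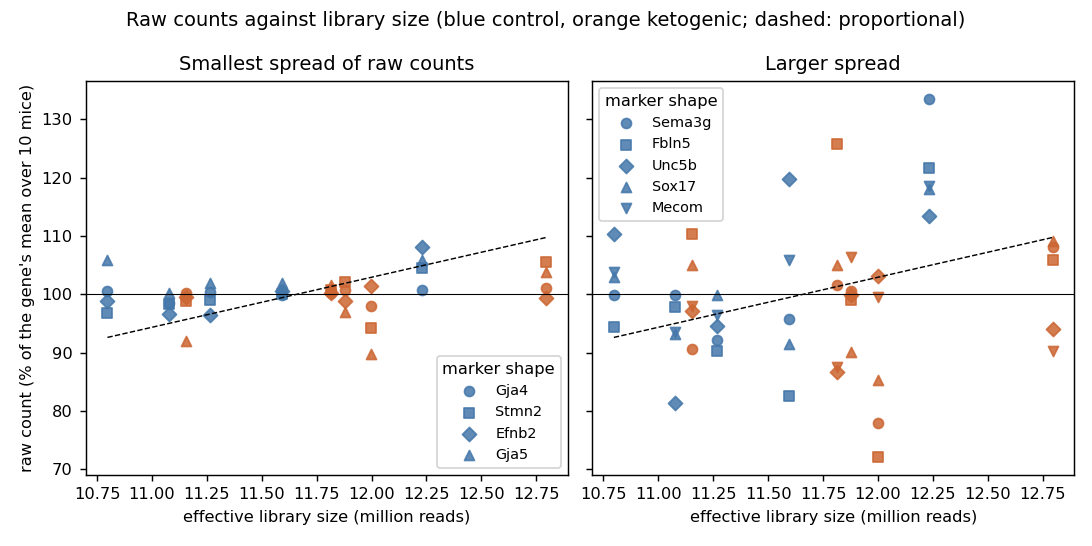
Raw count of each marker as a percentage of its mean over the 10 mice (vertical axis) against effective library size (horizontal axis), control in blue and ketogenic in orange; the dashed line is a count that follows library size. Gja4 (circles, left) stays flat from the smallest to the largest library, whereas Sema3g, Fbln5, Unc5b, Sox17 and Mecom (right) scatter widely around both lines.

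The spread between mice differed among the markers. The coefficient of variation of normalized counts within control mice was 2.008% for Stmn2, 2.587% for Efnb2, 4.498% for Gja4 and 4.911% for Gja5. It was 6.38% for Mecom, 8.386% for Sox17, 12.08% for Sema3g, 12.3% for Fbln5 and 13.86% for Unc5b. The interval of the diet difference was widest for Fbln5, where it admits log2 changes from -0.27 to 0.31. A difference of the size of the Gja5 estimate thus lay inside the interval of Fbln5, and inside that of Sox17 as well (-0.29 to 0.10).

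Levels between genes were compared per length, with the deposited RPKM (reads per kilobase of gene, scaled to library size). Averaged over all 10 mice, Gja4 was highest at 154.4 ± 7.119 (SD), followed by Gja5 at 66.9 ± 4.673, Sema3g at 56.07 ± 7.117, Fbln5 at 52.71 ± 8.481, Efnb2 at 40.3 ± 1.672 and Stmn2 at 39.53 ± 1.387. Unc5b at 27.29 ± 3.46, Mecom at 14.61 ± 1.429 and Sox17 at 3.843 ± 0.3794 came last. Gja4 filled 90.56% to 93.49% of its start positions, and Gja5 81.19% to 95.83% of those of its principal transcript. What this does to their levels and to the small SD of Gja4 was not tested. The ranges over mice of the neighbours Gja5 and Sema3g, Sema3g and Fbln5, Fbln5 and Efnb2, and Efnb2 and Stmn2 overlapped, whereas Gja4 stood clear of Gja5, and Stmn2, Unc5b, Mecom and Sox17 clear of each other, in all 10 mice.

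That order depended on the gene length. The RPKM values imply lengths of 12376 bases for Sox17 and 24882 for Mecom, against 4772 and 12427 bases of non-overlapping exon in the GENCODE annotation used here. Divided by the latter, the mean level per length was 9.993 for Sox17 and 29.32 for Mecom, Stmn2 was at 45.53, Gja5 at 83.04 and Efnb2 at 28.66. Mecom then stood above Efnb2 and Unc5b, while Gja4, Gja5 and Sema3g remained the first 3 and Sox17 the last. The principal transcripts have other lengths again, 3109 bases for Gja5, 2073 for Stmn2 and 1685 for Gja4. Levels per principal transcript were not computed, so the order of the upper genes holds only for the lengths used here.

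**Figure D3:**
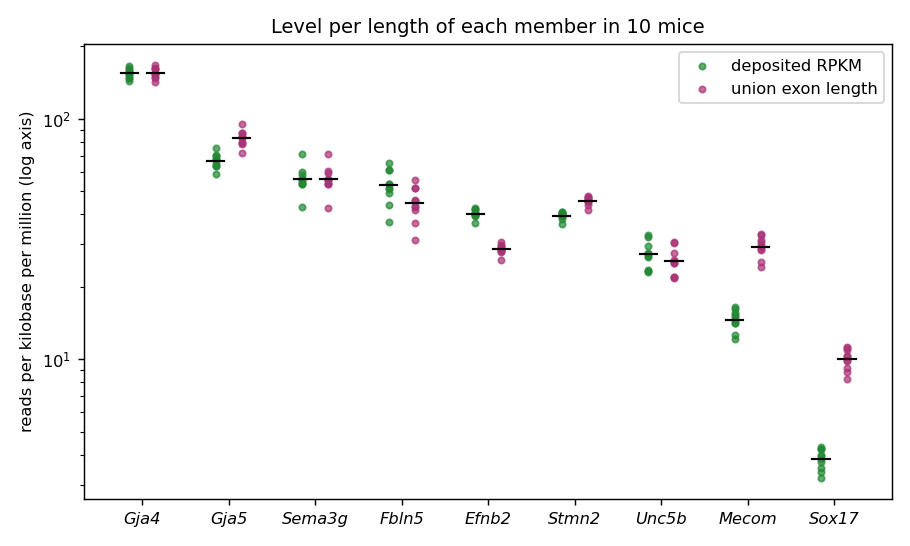
Level per length of each marker in the 10 mice (points; bars are means) (RPKM) on a log axis, from the deposited RPKM (green) and from non-overlapping exon length (purple). Gja4 is highest with both lengths and Sox17 lowest, at 3.843 and 9.993, and Mecom, Stmn2 and Efnb2 each move by 2 ranks. Reads of Gja4 filled 90.56% to 93.49% of its start positions.

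Other genes of arterial endothelium gave the markers a frame. Of 15 further arterial genes, all tested, 13 had a lower fitted level under ketogenic feeding and 2 a higher one (median log2 fold change -0.09). Of these, 8 had an unadjusted p under 0.05 with a lower value and 1 with a higher one, where 9.26% of all tested genes passed with a lower value. In edgeR 2 fell with an adjusted p under 0.05, beside 1.34% of all tested genes called in either direction. DESeq2 called the same 2, beside 5.16% of its genes. The list was written with earlier results of these data known, so these counts are no independent check. Notch1, a receptor that reads Delta and Jagged ligands on neighbouring cells, fell from 3933 ± 199 to 3077 ± 128.7 normalized counts (log2 fold change -0.35, SE 0.0417, edgeR adjusted p = 0.00222). Per mouse, Notch1 was at 3682, 4004, 3776, 4033 and 4169 in control and 3165, 3108, 2867, 3054 and 3190 in ketogenic mice, with no overlap. Notch1 filled at most 14.81% of the start positions of its annotated exons.

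Dll4, the Delta-like ligand of arterial and tip cells, fell from 4854 ± 159.6 to 4282 ± 111.3 (log2 fold change -0.18, SE 0.0307, edgeR adjusted p = 0.01704). Its counts per mouse were 4843, 4671, 4939, 5075 and 4744 in control and 4455, 4231, 4263, 4156 and 4308 in ketogenic mice, again with no overlap. Dll4 filled up to 64.41% of the start positions of its annotated exons. The call of Dll4 was lost when control mouse 3 (edgeR adjusted p = 0.05327), ketogenic mouse 3 (0.05093) or ketogenic mouse 4 (0.05206) was left out, while Notch1 kept its call without any single mouse (edgeR adjusted p up to 0.01153). Of the rest, Notch4 (-0.23, unadjusted p = 0.01999), Sulf1, an extracellular sulfatase (-0.17, unadjusted p = 0.02663), and Gkn3, a secreted protein of arterial endothelium (-0.51, unadjusted p = 0.03108), came nearest in edgeR, and none of these 3 passed after adjustment. The interval plot sets these genes beside the 9 markers.

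**Figure D4:**
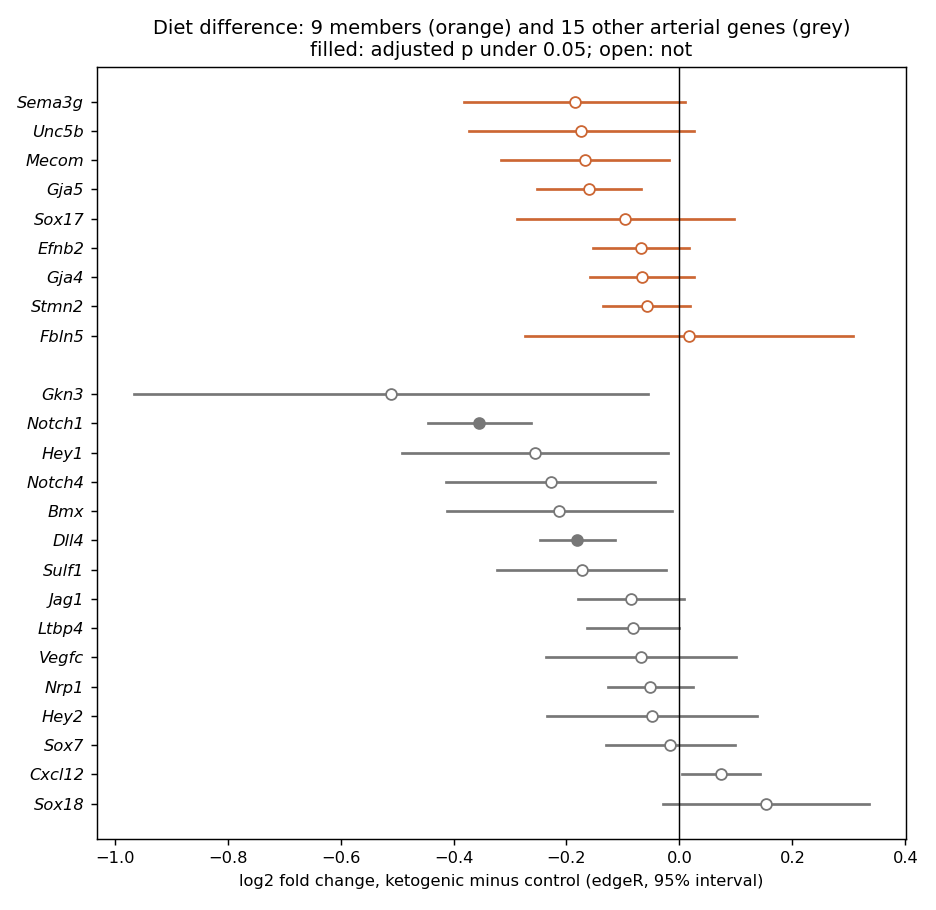
Log2 fold change (ketogenic minus control, horizontal axis) with its 95% interval from edgeR for the 9 markers (orange) and 15 other arterial genes (grey); filled points passed an adjusted p under 0.05. Most points lie left of 0, and Notch1 and Dll4 are the 2 filled ones.

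The binding partners of the markers were split evenly by direction. Of 22 receptors, co-receptors, fibre components and relatives (Ephb4 for Efnb2, Nrp2 and Plxnd1 for Sema3g, Ntn1 for Unc5b, Eln for Fbln5, and others), 20 had enough reads to be tested, and 10 were higher and 10 lower, with a median log2 fold change of 0.01. None passed an adjusted p under 0.05 in edgeR. At an unadjusted p under 0.05, 4 of the 20 passed, beside 17.8% of all tested genes. DESeq2 called 1, Eln, beside 5.16% of its genes. Eln, the elastin that fibulin-5 binds, was at 2208 ± 201.8 normalized counts in control and 1705 ± 241.9 in ketogenic mice (log2 fold change -0.37, SE 0.0925, edgeR adjusted p = 0.07057). Plxnd1, a plexin through which class 3 semaphorins act on endothelium, was at -0.14 (unadjusted p = 0.009455), and Gja1, connexin 43, at -0.09 (unadjusted p = 0.02686).

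Lists of other vessel types are given as counts and medians, and no list was tested against another. Of 9 general endothelial genes, 7 were lower, with a median log2 fold change of -0.05, and none passed in edgeR or DESeq2, also at an unadjusted p under 0.05 in edgeR. Pecam1 itself was at -0.09 (edgeR adjusted p = 0.2884). Of 8 capillary genes 4 were lower (median 0.00), of 8 venous genes 5 (median -0.07), of 6 lymphatic genes 4 (median -0.02) and of 4 endocardial genes 4 (median -0.11), and none of these passed in edgeR. At an unadjusted p under 0.05 the 4 lists held 3, 4, 1 and 1 genes, beside 17.8% of all tested genes. DESeq2 called 1, the venous gene Selp, the P-selectin of endothelium and platelets, beside 5.16% of its genes. Mural genes were lower in 7 of 10 (median -0.02) and fibroblast genes in 2 of 9 (median 0.11), with none past the limit in either tool and 0 genes at an unadjusted p under 0.05.

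Markers of heart muscle cells were next. All 10 cardiomyocyte genes had higher fitted levels in ketogenic mice (median 0.34 on the log2 scale). In edgeR 8 of them had an unadjusted p under 0.05, beside 17.8% of all tested genes, and none passed after adjustment. DESeq2 called 5 after adjustment, beside 5.16% of its genes. The summed level of the 10 genes was 584.8 to 750.5 CPM in control and 688.1 to 1004 in ketogenic mice. Ttn, the sarcomere protein titin, was at 1.03 (edgeR adjusted p = 0.06052). Macrophage genes, 7 of 8 of them lower, summed to 152 to 635.4 CPM in control and 126.7 to 252.6 in ketogenic mice, and 6 lymphocyte genes to 198.4 to 290.6 and 151.4 to 191.8. Of the 6, the 3 of T and NK cells had higher fitted levels and the 3 of B cells lower ones, and of these only Cd79a, part of the B cell receptor, fell past the limit in edgeR (-0.46, adjusted p = 0.02213). When a score of the cardiomyocyte genes entered edgeR as a covariate, Gja5 was at -0.11 (adjusted p = 0.5268), Sema3g at -0.01 (0.9788), Mecom at -0.22 (0.4738), Notch1 at -0.30 (0.1065) and Dll4 at -0.18 (0.1866), and Sox17 turned to 0.06 (0.882). The score and the diet overlap in these 10 mice, and the part of muscle RNA in the arterial values was not tested.

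The markers were also compared with each other across mice, after the mean of each diet had been subtracted from log2 CPM. Over the 36 pairs, Pearson's r had a median of 0.338 and ran from -0.299 to 0.85, with 28 pairs above 0. By permutation, 10 pairs had an unadjusted p under 0.05 and 1 passed after Benjamini-Hochberg adjustment. This was Sox17 with Fbln5 (r = 0.85, permutation p = 0.00118, adjusted p = 0.0425; Spearman's rho = 0.77, permutation p = 0.0122, adjusted p = 0.131), and r was 0.653 without the 2 mice farthest from the median of Sox17. No pair passed by Spearman's rho, where Gja4 with Stmn2 had the highest value (0.855, permutation p = 0.00319, adjusted p = 0.115). Raw counts of these genes varied by a highest to lowest ratio of 1.032 and 1.12, and the part of library size in this relation was not tested.

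As a description of likeness, the gene with the highest Pearson's r of log2 CPM over the 10 mice, diets included, is given for 8 of the markers, from 15948 candidates each. It was Plat for Gja4 (0.991), Mob2 for Gja5 (0.954), Lama3 for Sema3g (0.975), Myl6b for Efnb2 (0.953), Stub1 for Fbln5 (0.973), Cox4i2 for Stmn2 (0.961), Srms for Unc5b (0.927) and Gm14227 for Mecom (0.952). None of these 8 genes passed between the diets (edgeR adjusted p from 0.1655 for Mob2 to 0.9036 for Stub1), and each is the extreme of many candidates over few mice. With diet means subtracted, log2 CPM of Gja4 had r = -0.975 with log2 effective library size, Efnb2 -0.721 and Stmn2 -0.673. The remaining markers ran from -0.532 (Gja5) to 0.276 (Sema3g). The part of library size in these likenesses was not tested.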

How the data were processed

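RNA was measured in bead-isolated CD31+ heart cells of 10 mice, 1 library per mouse, grouped by the diet in the sample labels. Libraries were made by the authors with a SMART-Seq v4 low-input kit that does not mark strand and read as 50-base single reads. The submitters' processing notes name bcl2fastq 2.17.1.14, STAR 2.3, HTSeq 0.6.0 and mm10; how duplicate reads were treated is not given in the sources used here. The authors deposited raw read counts per gene and, in a second table, RPKM values.

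Counts were fitted with edgeR 4.0.16 (TMM, filterByExpr, quasi-likelihood F-test, Benjamini-Hochberg over all 15949 tested genes), after the procedure had been tested on simulated data. A gene was called at an adjusted p under 0.05. Normalized counts are counts scaled to a mean effective library of 11631440 reads. DESeq2 1.42.0 (the tool the study names), limma 3.58.1 on log2(RPKM + 1) and log2(RPKM + 0.1), other scalings and filters, a replicate block, covariates and leaving out each mouse were alternatives. Exact permutation tests (two-sided) of the markers used log2 normalized counts, and that of depth used log2 effective library size. Correlations used 100000 permutations (scipy 1.17.1). For the position corrections, the share of filled start positions was turned into an expected number of reads and capped at 0.99. Log2 CPM used a prior count of 2. Of 46983 identifiers, 46488 matched GENCODE M21 (GRCm38), 37902 with the same version.

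The markers and the comparison lists were chosen with earlier results of these data known. Ephb4, Nrp2 and Cxcl12 stand in 2 lists each, Cxcl12 among the arterial and the capillary genes. Named were all markers, every other arterial or partner gene past the limit plus the 3 of smallest p, at most the defining gene and 2 of smallest p of other lists, and the nearest gene of each marker; some of these are not reported here. Motifs are core letters of each factor family. Intervals state the uncertainty of the mean diet difference, judged in edgeR from the variation between mice, and are not ranges of single mice. Whether littermates were shared between diets is not given per sample.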

Additional observations from a re-analysis of the deposited data

Results flagged for a closer look

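One value stood apart from its group. Among the 18 sets of 5 mice (9 markers in each diet), the Sema3g count of ketogenic mouse 4 was 2249 normalized counts, below the other ketogenic mice at 2810 to 2973. Its gap to the nearest mouse took up 0.775 of the range of the 5 mice, above the 95% limit of Dixon's test. Chance alone flags about 1 in 20 such sets. Without this mouse the log2 fold change of Sema3g was -0.12.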

How the results depend on the processing

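Each marker was refitted under 24 alternatives, and 7 of the 9 kept their direction in all of them. Sox17 turned to 0.0616 with the cardiomyocyte covariate. Fbln5 turned to -0.00098 with limma on log2 CPM and ran from -0.0669 to 0.123 when single mice were left out. With the cardiomyocyte covariate Fbln5 was at 0.2695 (SE 0.166, edgeR adjusted p = 0.6068). DESeq2 called Gja5 (-0.15, adjusted p 0.03548), which raised the number of markers called from 0 to 1; with single mice left out it was 0. The number of all genes called, 213 in edgeR, was 795 with DESeq2, 113 with the replicate block, 19 with the cardiomyocyte and 118 with the mural covariate, and 86 to 492 with single mice left out, lowest without control mouse 2 and highest without ketogenic mouse 2. The causes were not tested. With exon length in place of the deposited length, levels were 83.04 for Gja5, 28.66 for Efnb2, 9.993 for Sox17, 45.53 for Stmn2 and 29.32 for Mecom. Same-numbered mice of the 2 diets did not deviate together (correlations from -0.134 to 0.0936). These values gave no sign of pairing by number, and they cannot exclude that such mice shared a litter. The block kept 90 of the 213 calls, lost that of Dll4 (adjusted p 0.07007) and changed no marker's call. Start positions were filled up to 93.49% for Gja4 and 95.83% for the principal transcript of Gja5, and what this does to precision was not tested.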
